A study of Mus musculus with 33 samples.

Results

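In the RNAseq counts of sorted mammary epithelial cells from PTHrP WT and PTHrP KO mice, 6 of 55487 gene rows with large steps in reads between libraries were examined. They are 1700061I17Rik, AA465934, 1500015A07Rik, Gm5182, Rps18-ps4 and Rps18-ps6, noncoding or pseudogene rows by annotation or by name. Rps18-ps6 is a pseudogene by name and is annotated as protein coding. Other rows with such steps are named below. The rows were selected on measured values of these same libraries, namely large steps in reads between the genotypes or in single libraries. Their differences between PTHrP WT and PTHrP KO, their differences between tumors and glands, and the on-off pattern of Rps18-ps4 and Rps18-ps6, are therefore descriptions without a test. Each of the 6 held at least 10 reads summed over the 33 libraries, the filter that left 36527 rows for testing. For 1700061I17Rik, PTHrP KO libraries held 315 of 332 reads and PTHrP WT libraries 17.

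Each of the 33 libraries came from 1 mouse and held GFP+ cells, sorted after a short culture. All mice carried Cre recombinase under the MMTV promoter, which is active in mammary epithelium, and the mTmG reporter, which Cre switches from mTd to GFP. PTHrP WT mice were Pthrp wt/wt and PTHrP KO mice were Pthrp flox/flox, so that Cre removes part of the gene for PTHrP in the cells that turn GFP+. Tumor mice also carried the MMTV-PyMT oncogene, and tumor-free mice did not. PTHrP WT tumors came from weeks 6, 8 and 10 (3 mice each) and week 12 (1 mouse), and PTHrP KO tumors from weeks 8, 10 and 12 (3 mice each). The paper places hyperplasia at week 6 in PTHrP WT and at week 8 in PTHrP KO tumors. Tumors of the same age thus differ in stage between the genotypes. Tests between the genotypes in tumors used weeks 8 and 10 of both, and the part of stage was not tested. Tumor-free glands came from 2 PTHrP WT mice each at weeks 6, 8, 10 and 12 and from 2 PTHrP KO mice each at weeks 8, 10 and 12. The MMTV lines were on FVB/NJ, and the floxed Pthrp allele was made in C57BL/6 mice and then backcrossed to FVB over several generations. The mTmG reporter line came from the Jackson Laboratory, and its background strain is not given in the paper. Which strain's alleles a library carried at any locus was not measured here.

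Processed pseudogenes are copies of a spliced messenger RNA that were pasted back into the genome, so they lack introns and can lie far from the gene they came from. Their presence can differ between inbred strains, and the mouse reference genome is that of C57BL/6. Where a copy is nearly identical to its parent gene, a short read can align equally well to both, and small sequence changes in either decide which row receives the read. Rps18 encodes a protein of the small ribosomal subunit and is used by every cell. Acaca encodes acetyl-CoA carboxylase, which makes the malonyl-CoA used in fatty acid synthesis. Long noncoding RNAs such as 1700061I17Rik have no known protein product.

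How close the pseudogene rows are to their parents is shown first, because the read counts of both are compared below. The stretch of the Rps18 coding sequence from base 132 to base 371 is printed for Rps18 (chr17:33952233-33952562, minus strand, introns removed), Rps18-ps6 (chr13:97760218-97760457, minus strand) and Rps18-ps5 (chr13:28257767-28258006, plus strand). Sequences are from Gencode M21 transcripts on GRCm38, and capitals mark the bases at which a copy and Rps18 differ.
Rps18: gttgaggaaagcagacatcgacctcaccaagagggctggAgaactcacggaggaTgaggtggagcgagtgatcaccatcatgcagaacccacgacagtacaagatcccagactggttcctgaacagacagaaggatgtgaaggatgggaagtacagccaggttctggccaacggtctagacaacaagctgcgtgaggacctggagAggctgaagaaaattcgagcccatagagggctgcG
Rps18-ps6: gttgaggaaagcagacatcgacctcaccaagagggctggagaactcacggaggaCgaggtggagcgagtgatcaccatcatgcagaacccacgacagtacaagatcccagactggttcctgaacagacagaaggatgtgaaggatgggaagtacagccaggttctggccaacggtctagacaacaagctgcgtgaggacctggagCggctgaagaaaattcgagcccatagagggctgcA
Rps18-ps5: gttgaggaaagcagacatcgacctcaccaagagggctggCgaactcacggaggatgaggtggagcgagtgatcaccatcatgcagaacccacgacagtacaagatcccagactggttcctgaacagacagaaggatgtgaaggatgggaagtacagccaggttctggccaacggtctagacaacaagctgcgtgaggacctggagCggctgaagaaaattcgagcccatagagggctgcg

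Over the 459 bases of the Rps18 coding sequence, Rps18-ps6 differed at 4 (T186C, A337C, G371A and G431A) and Rps18-ps5 at 3 (T11A, A171C and A337C). Positions are counted from 1 at the first base of the coding sequence, and the base of Rps18 is given first. A337C is shared by both copies. Of the 360 stretches of 100 bases in the coding sequence, 137 (38.1%) were identical in Rps18-ps6 and 149 (41.4%) in Rps18-ps5. The 2 copies lie 69.5 Mb apart on chromosome 13. The Rps18-ps4 row is a lincRNA on the opposite strand that spans Rps18-ps6, and its transcript matched the Rps18-ps6 transcript over 543 bases at 100% identity.

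The same comparison was made for Gm5182 and Acaca, for bases 2950 to 3129 of the Acaca coding sequence (Acaca at chr11:84264070-84270438, plus strand, introns removed, and Gm5182 at chr12:10154171-10154350, plus strand). Capitals again mark the bases that differ.
Acaca: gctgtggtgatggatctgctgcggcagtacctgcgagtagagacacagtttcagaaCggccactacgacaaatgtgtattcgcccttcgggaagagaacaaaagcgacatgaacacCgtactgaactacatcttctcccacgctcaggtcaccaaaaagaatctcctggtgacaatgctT
Gm5182: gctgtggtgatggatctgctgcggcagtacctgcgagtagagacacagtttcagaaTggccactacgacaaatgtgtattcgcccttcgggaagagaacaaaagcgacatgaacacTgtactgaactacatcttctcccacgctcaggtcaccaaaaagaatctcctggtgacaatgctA

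Within this stretch the changes are C3006T, C3066T and T3129A, with positions counted from 1 at the first base of the Acaca coding sequence and the base of Acaca first. Gm5182 aligned to 6116 of the 7038 coding bases of Acaca with 20 base differences, and 4106 of 6017 stretches of 100 bases (68.2%) were identical. Over whole transcripts the identity was 99.2% over 6118 bases.

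Counted reads per library ranged from 28419983 to 130981596, and a count of 0 at this depth allows an expected count of up to 3 reads. A library was called at the floor at 3 reads or fewer, a limit that covers counting error only. Levels are given as CPM, reads scaled to the TMM-adjusted library size, and adjusted p values are from edgeR's quasi-likelihood test over all 36527 rows. A row was called at a fold change over 1.5 and an adjusted p under 0.1. The share of reads on rRNA genes also differed between the genotypes. It was at most 0.447% in PTHrP WT libraries, with a median of 0.952% in PTHrP KO tumors and 6.20% in PTHrP KO glands. Its part in the genotype differences below was not tested for the 6 rows. Summed luminal markers (Epcam, Krt8, Krt18, Krt19 and Cdh1) lay between 4213 and 10783 CPM in every library, and Adipoq was at the floor in 31 of 33. Fibroblast markers (Col1a1, Col1a2 and Pdgfra) were detected in every library and summed to 8.36 to 343 CPM, immune markers (Ptprc, Cd68 and Cd3e) to 2.07 to 14.6 CPM, and endothelial markers (Pecam1 and Cdh5) to 0.144 to 7.43 CPM. Basal markers (Krt5, Krt14, Krt17 and Acta2) summed to 3873 to 13489 CPM in glands and to 873 to 4094 CPM in tumors, and their part in the tumor results below was not tested. In such bulk libraries fewer cells of a type and less RNA per cell cannot be told apart.

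1700061I17Rik (ENSMUSG00000028009) is a lincRNA at chr3:117060522-117077765 (GRCm38, minus strand). PTHrP KO tumors held 37, 34 and 17 reads at week 8, 21, 40 and 20 reads at week 10, and 11, 61 and 39 reads at week 12. PTHrP KO glands held 21 and 6 reads at week 8, 0 and 1 read at week 10, and 7 and 0 reads at week 12. PTHrP WT libraries held 0 to 4 reads, with 11 of 18 at 0. Tumors of the genotypes did not overlap, since the lowest PTHrP KO tumor was at 0.160 CPM and the highest PTHrP WT tumor at 0.0587 CPM. Glands did overlap, and 3 of the 6 PTHrP KO glands were at the floor like nearly all PTHrP WT libraries. The row is thus a low-level signal of PTHrP KO tumors and a few PTHrP KO glands, not an on-state shared by all PTHrP KO mice.

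The rows were chosen on their reads in all 33 libraries, tumors and glands included, so tumors and glands are compared without a test. In PTHrP KO mice 1700061I17Rik was at 0.160 to 1.29 CPM in the 9 tumors and at 0 to 0.412 CPM in the 6 glands. No fold change is given, because 3 of these glands, both of week 10 among them, were at the floor. The lowest tumor (0.160 CPM) lay below the highest gland (0.412 CPM), so single mice of both tissues overlapped. In PTHrP WT mice 9 of 10 tumors and 7 of 8 glands were at the floor as well. In all, 10.6% of tested rows were called between tumors and glands in PTHrP KO mice and 15.7% in PTHrP WT mice, and nothing is read from these shares about the 6 rows.

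**Figure D1:**
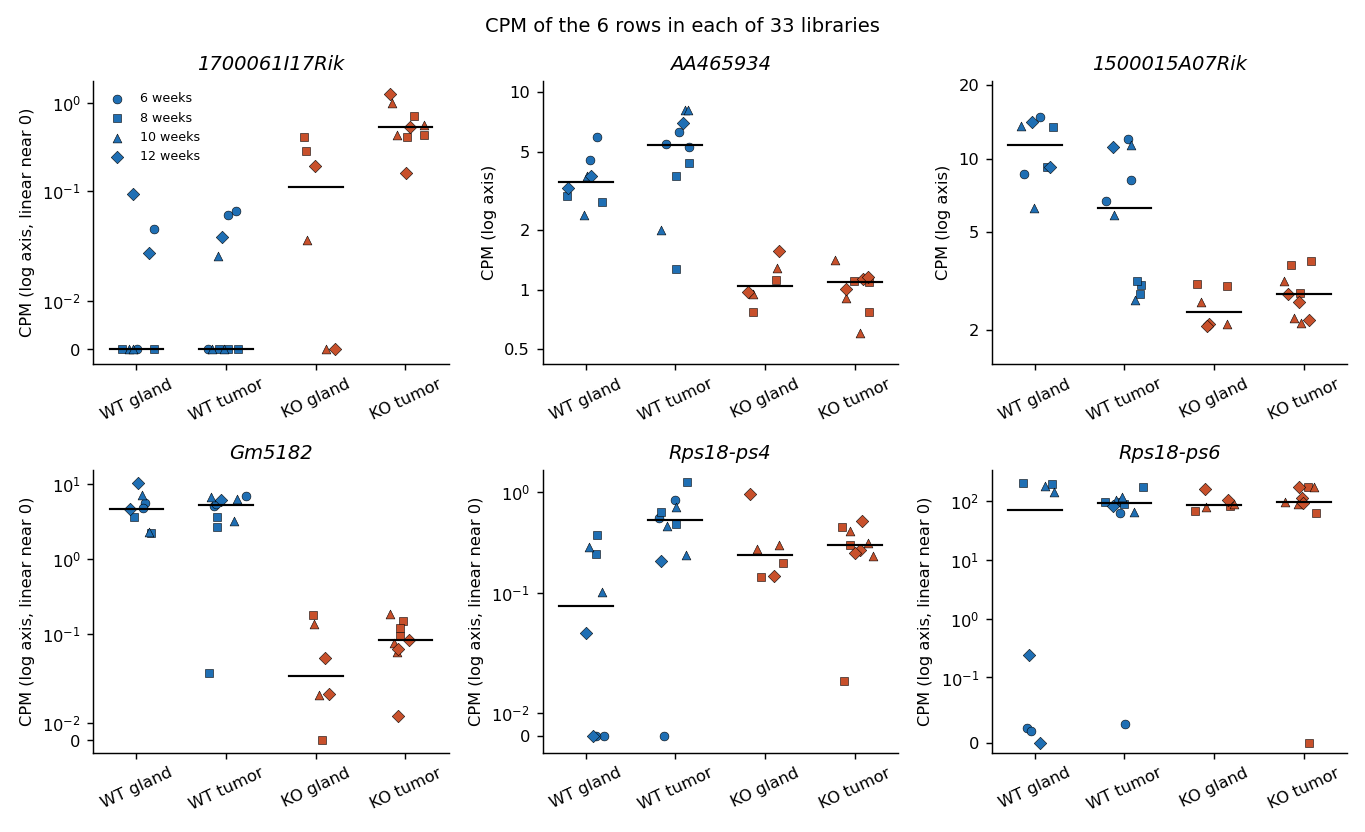
Level (CPM, log axis, linear near 0 where a row reaches 0) of each of the 6 rows in 33 libraries, 1 point a library, grouped by genotype and tissue, with the shape giving the age in weeks and a line at the median. 1700061I17Rik is above 0.1 CPM in all 9 PTHrP KO tumors, Gm5182 is at 0.0403 CPM in 1 PTHrP WT tumor of week 8, and Rps18-ps6 is near 0 in 6 libraries of both genotypes.

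AA465934 (ENSMUSG00000093483) is a processed transcript at chr11:83291699-83294632 (GRCm38, plus strand). It was detected in all 33 libraries, with 63 to 709 reads in PTHrP WT and 16 to 78 reads in PTHrP KO libraries. PTHrP WT glands lay between 2.39 and 5.91 CPM (median 3.51, n = 8) and PTHrP KO glands between 0.770 and 1.58 CPM (median 1.04, n = 6). PTHrP WT tumors lay between 1.27 and 8.12 CPM (median 5.38, n = 10) and PTHrP KO tumors between 0.603 and 1.41 CPM (median 1.09, n = 9). The glands of the genotypes were separate. In tumors 1 PTHrP WT library, replicate 2 of week 8, lay within the PTHrP KO range at 1.27 CPM, while replicates 1 and 3 of that week were at 4.36 and 3.74 CPM. The log2 fold change of AA465934 in tumors over glands was 0.41 in PTHrP WT mice and -0.12 in PTHrP KO mice. This row is therefore not an on-off row but a row at a lower level in PTHrP KO mice, in both tissues.

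1500015A07Rik (ENSMUSG00000098702) is an antisense transcript on chromosome 18, chr18:61726390-61735917 (GRCm38, plus strand), and overlaps Afap1l1 on the other strand. PTHrP WT glands lay between 6.3 and 14.9 CPM (median 11.4, n = 8) and PTHrP KO glands between 2.07 and 3.08 CPM (median 2.36, n = 6). PTHrP WT tumors lay between 2.65 and 12.0 CPM (median 6.32, n = 10) and PTHrP KO tumors between 2.12 and 3.82 CPM (median 2.79, n = 9). All 3 PTHrP WT tumors of week 8 (3.03, 3.16 and 2.79 CPM) and replicate 3 of week 10 (2.65 CPM) fell within the PTHrP KO range, and the other 6 lay above it. The glands were separate between the genotypes. The log2 fold change in tumors over glands was -0.97 (edgeR, weeks 6, 8 and 10) in PTHrP WT mice and 0.18 (weeks 8, 10 and 12) in PTHrP KO mice. The value in PTHrP KO mice was 0.11 to 0.23 without 1 library and 0.31 with a replicate block. Over weeks 8 and 10, which both genotypes share, the tumor effect in PTHrP WT minus that in PTHrP KO was -1.39 (log2). Of all rows 2 (0.00548%) were called in that comparison, with 2038 at an unadjusted p under 0.05 in edgeR, and nothing is read from this for the 6 rows.

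Afap1l1, which encodes an adaptor protein of the actin cytoskeleton, did not show the step between the genotypes in glands. Its level was 7.74 to 43.8 CPM in PTHrP WT glands and 9.26 to 41.4 CPM in PTHrP KO glands, and the difference was not called (log2 fold change of WT over KO -0.38, SE 0.35, adjusted p = 0.746). Afap1l1 was lower in tumors than in glands in PTHrP WT mice (log2 fold change -1.52, SE 0.32, adjusted p = 0.00105, edgeR) and in PTHrP KO mice (log2 fold change -1.88, SE 0.32, adjusted p = 0.000135). The strand setting of the read counting is not given in the sources used here, so reads of the 2 overlapping rows may not be fully separated.

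Gm5182 (ENSMUSG00000111942), the Acaca copy on chromosome 12 (chr12:10152142-10158233, GRCm38, plus strand), had a large step between the genotypes. PTHrP WT glands held 91 to 925 reads and PTHrP KO glands 0 to 9 reads. PTHrP WT tumors held 385, 401 and 186 reads at week 6, 418, 2 and 124 at week 8, 323, 135 and 328 at week 10 and 610 at week 12. PTHrP KO tumors held 8, 7 and 5 reads at week 8, 9, 3 and 2 at week 10 and 1, 3 and 6 at week 12. The row was thus present in 17 of 18 PTHrP WT libraries, and the exception was again replicate 2 of the week 8 tumors, at 2 reads. In PTHrP WT mice the log2 fold change in tumors over glands was -0.03, and the sign of this value changed in other settings.

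The parent gene did not show this step. Acaca was at 139 to 344 CPM in PTHrP WT and at 194 to 331 CPM in PTHrP KO libraries. WT minus KO was -0.15 in tumors (log2, SE 0.12, adjusted p = 0.681) and -0.18 in glands (log2, SE 0.12, adjusted p = 0.574). Of the reads on Acaca and Gm5182 together, Gm5182 held 0.0117 to 3.28% in PTHrP WT libraries (median 2.40%) and 0 to 0.0700% in PTHrP KO libraries (median 0.0292%). The 95% Wilson interval of a share, which covers counting error only, spanned at most 0.816 percentage points. In the week 8 PTHrP WT tumor of replicate 2 the share was 0.0117% (0.00321 to 0.0427%), from 2 of 17065 reads, and in replicates 1 and 3 it was 1.33% and 1.04%. Acaca lies 835 kb from AA465934 on chromosome 11, and Gm5182 and AA465934 had the same PTHrP WT library within the PTHrP KO range. Acaca itself was at 344 CPM in that library, the top of its PTHrP WT range.

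**Figure D2:**
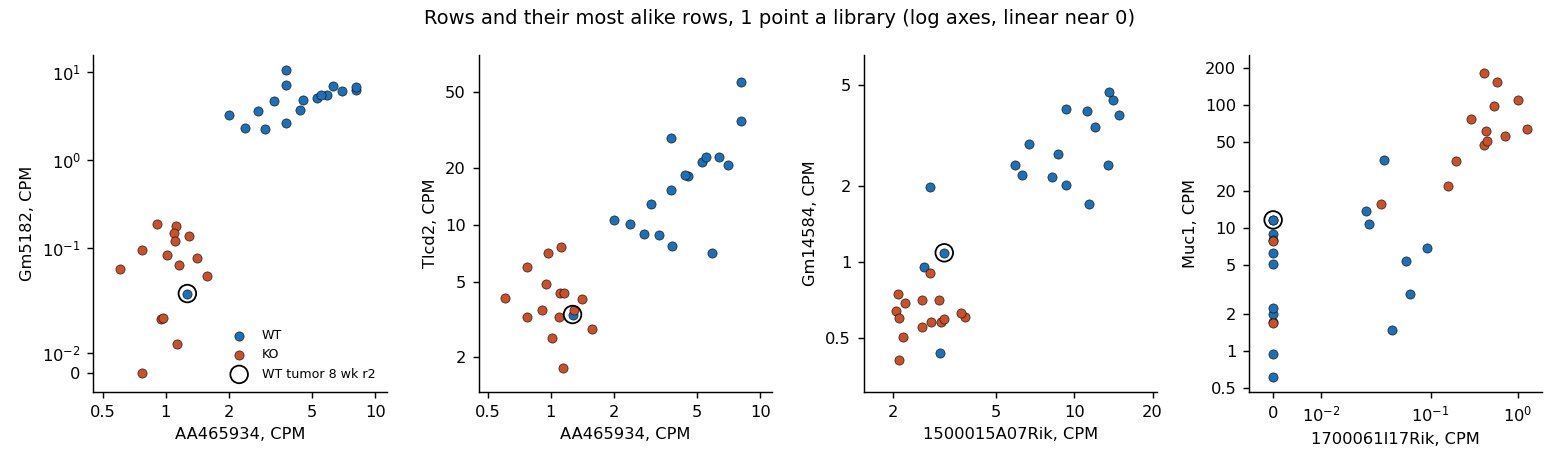
Level of a row against that of a row most alike to it, 1 point a library (n = 33, CPM, log axes, linear near 0 where a row reaches 0), with PTHrP WT and PTHrP KO in different colors. The circled library, replicate 2 of the PTHrP WT tumors of week 8, lies among the PTHrP KO libraries for AA465934, Gm5182 and Tlcd2, and among the PTHrP WT libraries at 0 reads of 1700061I17Rik.

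Rps18-ps6 (ENSMUSG00000069117, chr13:97760072-97760632, GRCm38, minus strand) showed the largest step of the 6 rows, and it did not follow genotype. It held 1431 to 18433 reads in 27 libraries and 0 to 12 reads in the other 6. The 6 were both PTHrP WT glands of week 6 (1 read each), both PTHrP WT glands of week 12 (12 and 0 reads), replicate 3 of the PTHrP WT tumors of week 6 (1 read) and replicate 3 of the PTHrP KO tumors of week 8 (0 reads). Mice of the same genotype, tissue and age differed, since the other PTHrP WT tumors of week 6 held 4706 and 5748 reads and the other PTHrP KO tumors of week 8 held 14513 and 2969 reads. PTHrP WT glands of weeks 8 and 10 held 8904, 10187, 18433 and 7271 reads.

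Rps18-ps4 (ENSMUSG00000097346, chr13:97751112-97760965, GRCm38, plus strand) followed at a much lower level. It held 0 to 2 reads in the same 6 libraries and 3 to 72 reads in the other 27. For every 100 reads on Rps18-ps6 there were 0.0550 to 0.892 reads on Rps18-ps4 (median 0.294, n = 27). Both rows cover the same bases on opposite strands, so how their reads divide depends on the strand setting of the counting, which the sources used here do not give. Rps18-ps5 (ENSMUSG00000113061, chr13:28257528-28258134, plus strand), which is far from both, held 13 to 30 reads in the 6 libraries and 566 to 7761 in the others. Its reads per Rps18-ps6 read stayed between 0.332 and 0.462 (median 0.408, n = 27). The other Rps18 copies were low, with at most 6 reads a library on Rps18-ps1, 2 on Rps18-ps2 and 133 on Rps18-ps3.

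The reads of the family were next summed. Of all reads on Rps18, Rps18-ps5 and Rps18-ps6, the 2 copies held 0.0641 to 0.164% in the 6 libraries. They held 23.2 to 25.8% in 16 libraries (7 PTHrP WT and 9 PTHrP KO) and 48.6 to 57.7% in 9 libraries (5 PTHrP WT and 4 PTHrP KO). Only 2 libraries lay between these levels, a PTHrP WT tumor of week 6 at 14.4% and a PTHrP KO tumor of week 12 at 33.1%. These ranges were drawn after the shares were seen, and they describe the libraries without a test. The 95% Wilson interval of a library's share, which covers counting error only, spanned at most 1.85 percentage points. Each level held mice of both genotypes, with 5 PTHrP WT and 1 PTHrP KO library at the lowest.

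The summed level of the 3 rows did not show these steps. It was 384 to 554 CPM in the 6 libraries with the lowest copy share, 343 to 665 CPM in the 16 of the middle level and 358 to 516 CPM in the 9 of the highest. Rps18 itself ranged from 156 to 553 CPM, and its 4 lowest PTHrP WT glands (156 to 218 CPM, weeks 8 and 10) were those with 56.4 to 57.7% of reads on the copies. For Rps18 the log2 fold change of WT over KO was 0.20 in tumors (SE 0.19) and -0.36 in glands (SE 0.19). In PTHrP WT mice that of tumors over glands was 0.61 (SE 0.18), over weeks 6, 8 and 10. There 4 of 6 glands and 1 of 9 tumors had the highest level of copy reads. Both glands and replicate 3 of the tumors of week 6 had the lowest. These values are given without a test, because Rps18 and the selected row Rps18-ps6 can receive the same reads.

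**Figure D3:**
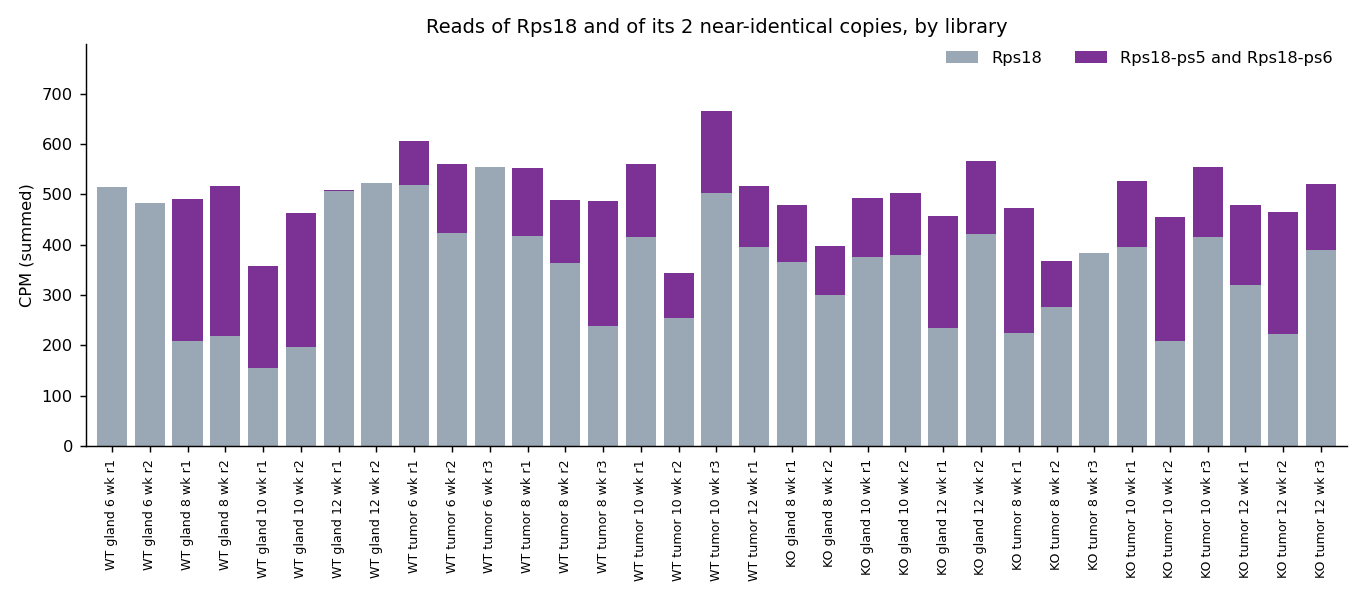
Reads on Rps18 and on its copies Rps18-ps5 and Rps18-ps6 in each of 33 libraries, as stacked bars of CPM that start at 0, with the 2 copies summed. The copies take 0.0641 to 0.164% of the bar in 6 libraries, 23.2 to 25.8% in 16 and 48.6 to 57.7% in 9, while the height of the bars stays between 343 and 665 CPM.

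The labels give each mouse a number. The 6 libraries with 0 to 12 Rps18-ps6 reads came from mice 3026, 3027, 3036, 3045, 3048 and 3077. Of the 18 mice numbered from 3026 to 3077, the other 12 held at least 1431 Rps18-ps6 reads, as did all 15 mice with lower numbers. What the numbers say of litter or parents is not given in the sources used here.

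The pattern was next compared with the genotype labels over the whole table. Levels of PTHrP WT and PTHrP KO tumors did not overlap for 1 of the 6 rows (1700061I17Rik), against 0.0493% of all tested rows. Levels in glands did not overlap for 3 (AA465934, 1500015A07Rik and Gm5182), against 0.49% of all rows. With all 33 libraries, 0 of the 6 and 0% of all rows were separate. Without replicate 2 of the PTHrP WT tumors of week 8, AA465934 and Gm5182 were separate, as 0.00821% of all rows were, 3 in number. The third was Ubb-ps on chromosome 14, named here after its values were seen, at 71.8 CPM in that library, 3.43 to 50.7 CPM in the other PTHrP WT libraries and 66.2 to 106 CPM in PTHrP KO libraries. In these comparisons the rows were chosen for such steps, so nothing is read from their counts. Of all rows 0.512% were called between the genotypes in tumors (3996 rows had an unadjusted p under 0.05) and 0.906% in glands.

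No row of the table was present (10 reads or more) in every library of 1 genotype and at the floor in every library of the other. The row nearest to it was Rps15a-ps8, a ribosomal protein pseudogene with 5 of 33 libraries against the pattern, followed by Pdcd5-ps with 6, both named here after their values were seen. 1700061I17Rik had 7 libraries against it and Gm5182 had 8. AA465934, 1500015A07Rik and Rps18-ps6 had 15, and Rps18-ps4 had 18. A strict presence in 1 genotype was thus not found in any row, with 20 reads as the limit, with 1 exception allowed, or in the authors' normalized table.

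Rows most alike to each of the 6 were found by Pearson's r of log2 CPM over the 33 libraries, which share genotype, tissue and depth, and r is given as a description. For AA465934 they were Gm5182 (r = 0.91), Tlcd2 (0.86), Gm12320 (0.77), Pctp (0.77) and Ubb (0.74). Tlcd2, Gm12320, Pctp and Ubb all lie on chromosome 11, as does Acaca, the parent of Gm5182. Among the 20 most alike rows 9 lay on chromosome 11, which holds 6.3% of tested rows, and 10 did so when parents of copies were counted. They lay between 58.9 and 116 Mb on that chromosome. Within PTHrP WT libraries r with Gm5182 was 0.73 (n = 18), within PTHrP KO libraries it was 0.23 (n = 15), and within PTHrP WT without replicate 2 of the week 8 tumors it was 0.63 (n = 17). The other 4 rows had r of 0.37 to 0.77 within PTHrP WT libraries, while within PTHrP KO libraries r was -0.22 for Tlcd2, 0.08 for Gm12320, 0.05 for Pctp and -0.33 for Ubb. Tlcd2, which encodes a membrane protein, was at 3.36 CPM in that week 8 library, within the PTHrP KO range of 1.75 to 7.62 CPM. Gm12320 and Ubb were not, since every PTHrP WT tumor lay above the PTHrP KO range. The lowest PTHrP WT tumor was at 0.226 CPM for Gm12320 and 277 CPM for Ubb, and the highest PTHrP KO library at 0.102 and 272 CPM.

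Gm5182 was in turn most alike to AA465934 (r = 0.91), Tlcd2 (0.81), Gm14584 (0.80), 1500015A07Rik (0.79) and Ubb (0.75), and 5 of its 20 most alike rows lay on chromosome 11. Within PTHrP WT and within PTHrP KO libraries these values were lower, at 0.56 and -0.05 for Tlcd2, 0.39 and -0.35 for Gm14584, 0.44 and 0.16 for 1500015A07Rik, and 0.01 and 0.36 for Ubb. Without replicate 2 of the week 8 tumors r with Tlcd2 in PTHrP WT was 0.16. Ubb, a polyubiquitin gene and the namesake of Ubb-ps, was at 255 to 432 CPM in PTHrP WT and 185 to 272 CPM in PTHrP KO libraries. The genotypes thus overlapped with both tissues pooled, but not within a tissue. In glands Ubb was at 255 to 357 CPM in PTHrP WT and 207 to 236 CPM in PTHrP KO mice. In tumors it was at 277 to 432 CPM and 185 to 272 CPM.

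For 1500015A07Rik the most alike rows were Gm14584 (r = 0.90), Gm8615 (0.83), Gm5182 (0.79), Pcdhgb7 (0.76) and Zfp61 (0.74). Pcdhgb7, a protocadherin gene, lies on chromosome 18. Gm14584 on chromosome X and Gm8615 on chromosome 5 are pseudogenes whose best match was Csnk1g3 and Gnpda1, both on chromosome 18. Of the 20 most alike rows 3 lay on chromosome 18, which holds 2.69% of tested rows. With parents of copies there were 5, between 37.8 and 57.4 Mb, and the share of all tested rows was not counted in this way. Gm14584 was at 0.436 to 4.71 CPM in PTHrP WT and 0.409 to 0.904 CPM in PTHrP KO libraries, so the genotypes overlapped as they did for 1500015A07Rik. In glands alone they were separate for Gm14584 too, at 2.02 to 4.71 CPM in PTHrP WT and 0.409 to 0.748 CPM in PTHrP KO mice. Within PTHrP WT the r of Gm14584 with 1500015A07Rik was 0.78, and within PTHrP KO it was 0.15. In the same order, r was 0.77 and 0.72 for Gm8615, 0.44 and 0.16 for Gm5182, 0.73 and 0.17 for Pcdhgb7, and 0.67 and -0.18 for Zfp61.

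1700061I17Rik was most alike to Muc1 (r = 0.82), Spop (0.78), Lactb2 (0.73), 4930556M19Rik (0.73) and Abi1 (0.72). Muc1, which encodes an epithelial mucin, also lies on chromosome 3, about where 6 of the 20 most alike rows lie (89.1 to 126 Mb, against 5.35% of tested rows on the chromosome). Muc1 was at 21.8 to 183 CPM in PTHrP KO tumors, 1.70 to 76.2 CPM in PTHrP KO glands, 2.91 to 35.8 CPM in PTHrP WT tumors and 0.620 to 10.8 CPM in PTHrP WT glands. Its r with 1700061I17Rik was 0.89 within PTHrP KO and 0.22 within PTHrP WT libraries, where 1700061I17Rik was at the floor in 16 of 18.

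Rps18-ps6 was most alike to Rps18-ps5 (r = 0.99), Glo1-ps (0.97), BC023719 (0.95), H2-DMb2 (0.93) and Gm18733 (0.91). All of them lie on chromosome 17 or are copies of a gene there, as Rps18 does. Glo1-ps, on chromosome 2, matched Glo1 on chromosome 17 at 99.5% over 555 bases. H2-DMb2 is a gene of the major histocompatibility complex whose product helps load peptides onto class II molecules. Among the 20 most alike rows 10 lay on chromosome 17, which holds 4.6% of tested rows. A further 7 were copies of genes there, 17 in all, between 21 and 36.1 Mb. The share of all tested rows with copies included was not counted. For Rps18-ps4 the count with copies was 14 of 20, led by Rps18-ps5 (r = 0.89), Rps18-ps6 (0.86), Glo1-ps (0.85), Rps2-ps10 (0.83) and H2-DMb2 (0.81). Within PTHrP WT and within PTHrP KO libraries r with Rps18-ps6 was 0.99 and 0.99 for Rps18-ps5, 0.97 and 0.97 for Glo1-ps, 0.94 and 0.99 for BC023719, 0.93 and 0.94 for H2-DMb2, and 0.94 and 0.84 for Gm18733. For Rps18-ps4 the 5 values were 0.81 to 0.90 within PTHrP WT and 0.75 to 0.87 within PTHrP KO, lowest in PTHrP KO for Rps2-ps10.

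**Figure D4:**
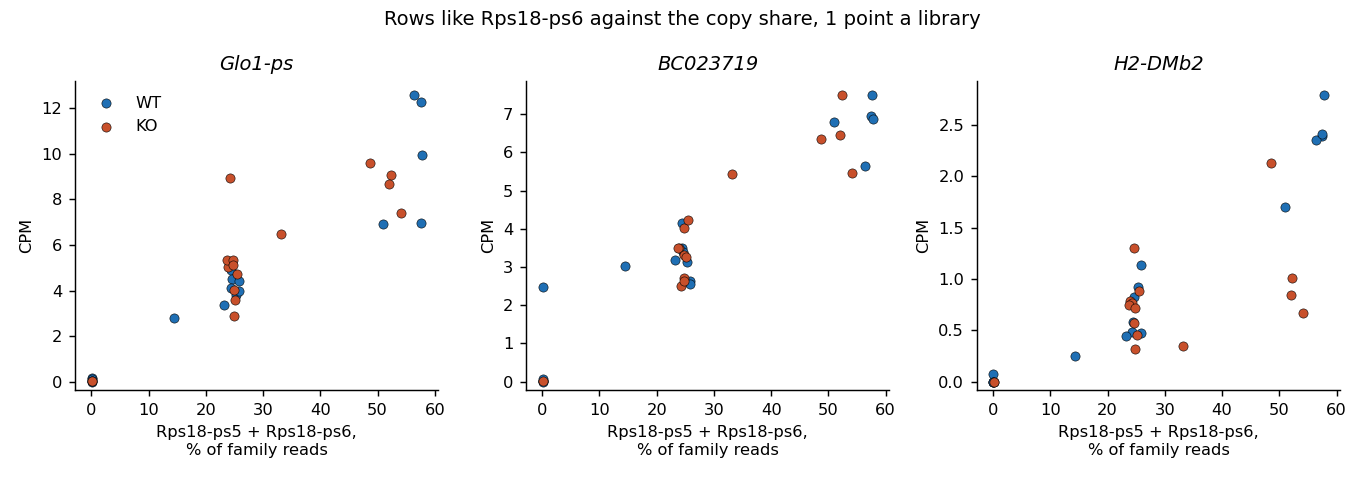
Level (CPM, linear axis) of Glo1-ps, BC023719 and H2-DMb2 against the percent of Rps18 family reads on Rps18-ps5 and Rps18-ps6, 1 point a library (n = 33), with PTHrP WT and PTHrP KO in different colors. The 6 libraries at 0.0641 to 0.164% are the 6 lowest in each panel, with BC023719 at 2.47 CPM in 1 of them.

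The 6 libraries with 0 to 12 Rps18-ps6 reads were also the 6 lowest for Rps18-ps4, Rps18-ps5, Glo1-ps, BC023719, H2-DMb2 and Gm18733. H2-DMb2 had 0 reads in 5 libraries, and Glo1-ps rose from 0.158 CPM in the sixth lowest library to 2.80 CPM in the seventh. BC023719 had a less clear break, at 2.47 and 2.50 CPM. For Gm10263 (named after its values were seen) and Rps2-ps10, copies of Rps28 and Rps2 on chromosome 17, 5 of the 6 lowest were shared. Rps18 and Glo1 are 3.33 Mb apart, and Rps18 and Rps2 9.23 Mb. Rps2-ps10 itself lies on chromosome 18 and reached 294 CPM.

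Genes within 500 kb of each row were tested between the genotypes, a test in which these neighbors played no part in the choice of rows. Of 44 rows read around AA465934, 1 (2.27%) was called in tumors, against 0.512% of all rows, and 2 (4.55%) in glands, against 0.906% of all rows. Wfdc18, which encodes a small secreted protein and lies 414 kb away, was higher in PTHrP WT tumors (log2 fold change 1.47, SE 0.28, adjusted p = 0.0240) and in PTHrP WT glands (log2 fold change 1.82, SE 0.29, adjusted p = 0.00421). The tumors were compared at equal age and not at equal stage. Levels of Wfdc18 were 107 to 278 CPM in PTHrP WT glands and 20.4 to 74.2 CPM in PTHrP KO glands, which were separate. Slfn9, a member of the Schlafen family, was lower in PTHrP WT glands (log2 fold change -1.53, SE 0.34, adjusted p = 0.0373), a call lost when replicate 2 was left out of the PTHrP WT glands of week 8, 10 or 12 or of the PTHrP KO glands of week 8 or 12 (log2 fold change -1.61 to -1.14). It was also lost with the log2 rRNA share as a covariate (-1.45, adjusted p = 0.252) and with only the gland groups of the contrast (-1.53, adjusted p = 0.211), whereas both calls of Wfdc18 held in these 3 kinds of fit.

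Of 21 rows near 1700061I17Rik 0 were called in tumors and 1 (4.76%, against 0.906% of all rows) in glands. That was Sass6, which encodes a centriole protein (log2 fold change -0.66, SE 0.18, adjusted p = 0.0982), and the call was lost in 23 of 33 fits that left out 1 library each and with the rRNA covariate (-0.57, adjusted p = 0.470) or only the groups of the contrast (-0.66, adjusted p = 0.333). Of 21 rows read near 1500015A07Rik 0 were called in glands. Grpel2, 0.065 kb from it, was at -0.12 in tumors (adjusted p = 0.681) and 0.14 in glands (adjusted p = 0.570), and Ablim3 was not called. Without 1 library Grpel2 was at -0.17 to -0.066 in tumors and 0.083 to 0.22 in glands. Near Gm5182 (8 rows), Rps18-ps4 (14 rows) and Rps18-ps6 (13 rows) 0 were called in either tissue. The nearest tested protein-coding genes of Rps18-ps4 and Rps18-ps6, Enc1 and Arhgef28, lay between 0.01 and 0.18 in both tissues (log2 fold change).

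**Figure D5:**
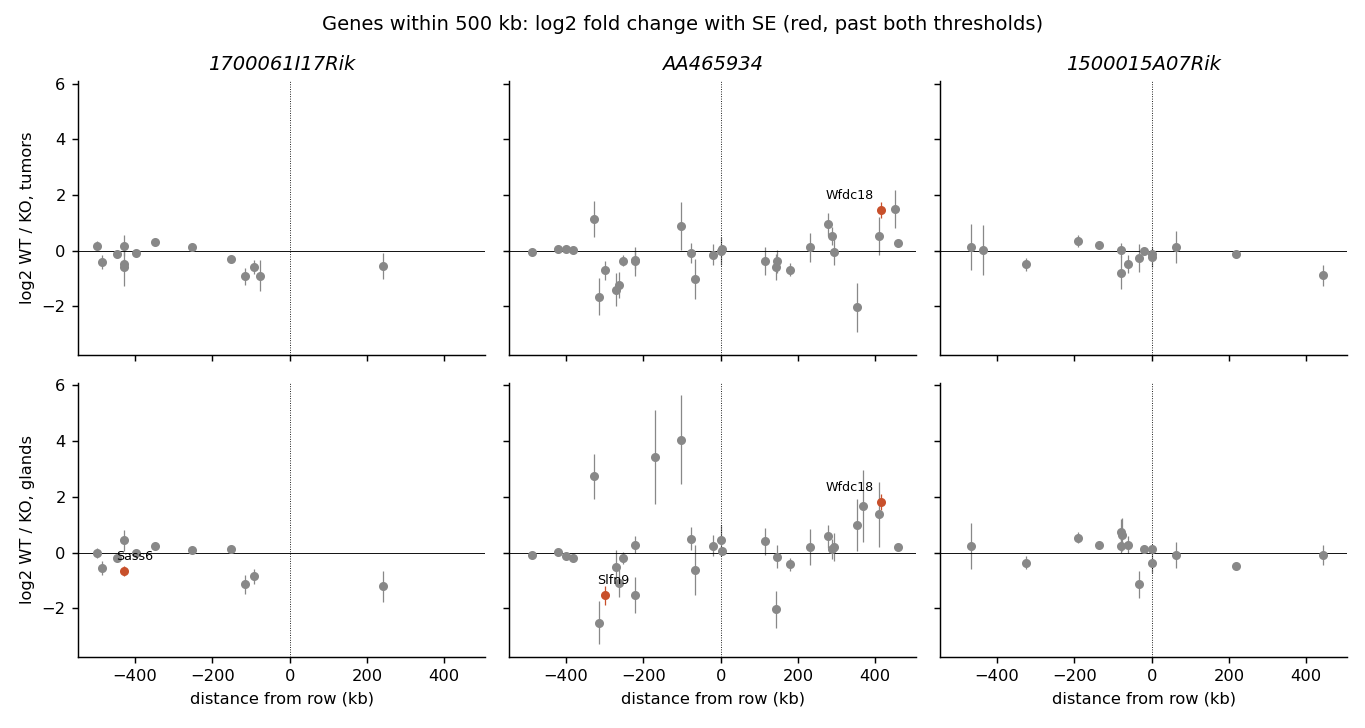
Log2 fold change of PTHrP WT over PTHrP KO (point, with bars of 1 SE) in tumors (top) and glands (bottom) for the genes read within 500 kb of 1700061I17Rik, AA465934 and 1500015A07Rik, against the distance from the row in kb. Genes with a mean level under 0.1 CPM in both genotypes of the tissue are left out, and red points are called, among which Wfdc18 was called in both tissues.

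A list of 15 genes known to differ in allele or copy number between laboratory mouse strains was also read, of which 14 were matched by name and H2-Ea-ps was not analysed here. Between the genotypes 1 of the 14 was called in each tissue, against 0.512% of all rows in tumors and 0.906% in glands, and it was Ifi202b in both. Ifi202b, an interferon-activated gene whose expression is known to differ between inbred strains, was higher in PTHrP WT tumors (log2 fold change 2.56, SE 0.53, adjusted p = 0.0325) and glands (log2 fold change 2.29, SE 0.53, adjusted p = 0.0426). Its levels overlapped, at 1.90 to 103 CPM in PTHrP WT and 0.735 to 29.1 CPM in PTHrP KO libraries. Trim30a, Gbp2b, Mx1 and Hc were not called in glands, at log2 fold changes of 2.45, 1.79, 2.82 and 1.59 (adjusted p = 0.116, 0.167, 0.171 and 0.181, edgeR). In tumors these 4 genes were at 0.96, 0.30, 0.32 and -0.14. Of the 14, only Pde6b was lower in PTHrP WT glands (-0.64). Nnt, which carries a deletion in some C57BL/6 lines, was at 2.08 to 3.78 CPM in PTHrP WT and 1.38 to 3.93 CPM in PTHrP KO libraries. Glo1 was at 57.0 to 92.9 CPM and 50.2 to 80.2 CPM, in contrast to the steps of Glo1-ps.

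Pthlh, the gene for PTHrP, lies on chromosome 6, where none of the 6 rows lies. Its level was 1.46 to 7.73 CPM in PTHrP WT and 1.35 to 8.52 CPM in PTHrP KO libraries. WT minus KO was 0.28 in tumors (log2, SE 0.27, adjusted p = 0.738) and 0.50 in glands (log2, SE 0.26, adjusted p = 0.455). The row counts the whole gene, of which Cre removes a part, so it does not check the deletion. Neither the row of Pthlh nor any other value here identifies the strain of origin of a locus, and for the 4 rows with steps between the genotypes the PTHrP genotype and the alleles that came with it cannot be told apart in this design.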

How the data were processed

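Total RNA of GFP+ cells was depleted of rRNA (Ribo-Zero) and made into TruSeq stranded libraries. Per the labels and methods, the authors aligned reads with HISAT to GRCm38 and Gencode M16, removed duplicates (Picard 1.128) and tallied reads on genes with HTSeq, with the strand setting not given in the sources used here. The deposited counts are raw counts for 55598 rows. Of these, 111 spike-in, reporter or transgene rows (0.0778% of reads) were left out. A 2nd deposited table holds signal, counts that the authors divided by size factors. All its values became whole reads within a tolerance of 1e-06 once the factor was undone, and it served as an alternative for the reads of each row. Groups came from the labels.

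The 6 rows and the gene lists were chosen with earlier results of these data known. Counts were fitted in edgeR 4.0.16 (R 4.3.3, TMM, quasi-likelihood test) with 1 coefficient per genotype, tissue and age over all 33 libraries, for rows with at least 10 reads summed. Contrasts averaged ages with equal weight, namely weeks 6, 8 and 10 (tumor minus gland in PTHrP WT), 8, 10 and 12 (the same in PTHrP KO), 8 and 10 (PTHrP WT minus PTHrP KO in tumors and the difference of tumor effects) and 8, 10 and 12 (glands). Calls needed a p below 0.1 after Benjamini-Hochberg adjustment together with a fold change above 1.5. The fit was tested on simulated data. SE is the log2 fold change over the root of the F statistic. Likeness used log2 CPM with a prior count of 0.5. Copies were matched with BLAST 2.17.0 to Gencode M21 transcripts at an identity of 95% or more over at least 200 bases, and positions are from M21 (GRCm38), matched by gene identifier for 55227 rows. Named rows are the 6, the Rps18 family and Acaca, the nearest tested protein-coding genes and up to 5 called genes within 500 kb, the 5 most alike rows, a list of strain-dependent genes, Pthlh, the rRNA share and up to 10 rows present in 1 genotype only (0 were found). Some neighbors of the 6 rows are not reported here. Alternatives were another normalization, other filters, DESeq2 1.42.0, fewer groups, a replicate block, an rRNA covariate and leaving out each library.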

Additional observations from a re-analysis of the deposited data

Results flagged for a closer look

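Rps18-ps4 in the PTHrP KO glands held 1 library far from the others. Replicate 1 of week 12 was at 0.942 CPM, from 34 reads, while the other 5 PTHrP KO glands were at 0.144 to 0.298 CPM, from 3 to 11 reads. The same library had 48.6% of its Rps18 family reads on Rps18-ps5 and Rps18-ps6, the highest of the PTHrP KO glands, and held 5866 Rps18-ps6 reads against 1431 to 4172 in the others. Of the 20 combinations of a row and a group that were examined in this way this was the 1 found. Chance gives about 1 in 20 groups of samples, and because the rows were chosen for large steps in single libraries nothing is read from this count.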

How the results depend on the processing

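Replicate numbers did not pair the libraries. Among 171 pairs of libraries with the same number the median correlation of deviations from the group means was 0.0010, and 13 pairs were over 0.1. With a replicate block, 238 rows were called between genotypes in tumors, 317 in glands, 5051 and 3566 between tumors and glands in PTHrP WT and PTHrP KO, and 2 for the difference of tumor effects, and the call of Sass6 (-0.68) was lost.

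The counts of genotype calls depended on the settings. The 187 calls in tumors became 573 without a filter beyond 1 read, 323 with filterByExpr, 664 with DESeq2 and 116 with the log2 rRNA share as a covariate (chosen after seeing the data). The 331 calls in glands became 722, 509, 741 and 52 in the same order, and 67 with only the groups of the contrast in the fit. The 2 calls for the difference of tumor effects became 138 without a filter, 74 with DESeq2 and 0 with only its groups. Leaving out 1 library in turn gave 50 to 586 calls in tumors, the lowest without replicate 2 of the PTHrP KO tumors of week 8 and the highest without replicate 1. It gave 60 to 775 in glands, the lowest without replicate 2 of the PTHrP KO glands of week 8 and the highest without replicate 1 of week 12, and 0 to 14 for the difference of effects. Between 50 and 586, the tumor count also moved by over 1.5 times without replicate 1, 2 or 3 of the PTHrP WT tumors of week 8 (96, 93 and 73), replicate 1 or 2 of those of week 10 (114 and 363), replicate 3 of the PTHrP KO tumors of week 8 (53) or replicate 2 or 3 of those of week 10 (62 and 122). The gland count did so without replicate 2 of the PTHrP WT glands of week 8 (84) or 10 (108), replicate 1 or 2 of those of week 12 (87 and 177), or replicate 2 of the PTHrP KO glands of week 10 (137) or 12 (132). The difference of effects had 14 calls without replicate 1 of the PTHrP WT glands of week 8, 4 without replicate 1 of the PTHrP KO tumors of week 8, 1 without replicate 1 and 0 without replicate 2 of the PTHrP WT glands of week 10, and 0 without replicate 2 of the PTHrP KO glands of week 8 or replicate 1 of week 10. These fits kept the dispersion trend of all 33 libraries. The cause was not tested.

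1700061I17Rik was present in 10 libraries at 10 reads and in 5 at 0.5 CPM. Rps18-ps4 was present in 22, in 12 at 20 reads and in 7 at 0.5 CPM. Values near 0 changed sign. Gm5182 between tumors and glands in PTHrP WT was 0.22 with the rRNA share and -0.25 to 0.32 without 1 library. Enc1 in glands was -0.00897, -0.00749 and -0.00922 with DESeq2's size factors, filterByExpr and DESeq2, and -0.0429 to 0.0600 without 1 library. Arhgef28 in glands was -0.0326 with the rRNA share, and 0.0157 to 0.46 without 1 library. Without 1 library, AA465934 in PTHrP KO was -0.24 to 0.0335, Afap1l1 in glands -0.64 to 0.0671, and Ablim3 -0.0511 to 0.46 in tumors and -0.40 to 0.24 in glands. In the normalized table reads of the 6 rows differed by at most 6 in any library. At these depths, rows at 3 reads or fewer allow no fold change.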
